A study of Homo sapiens with 6 samples.

Results

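PARP9, PARP10, PARP12, PARP14, DTX3L, SAMD9, SAMD9L, ZC3HAV1, HELZ2 and ZNFX1 are human genes known to respond to interferon, and they encode ADP-ribosyltransferases with their partners, SAMD9 proteins and RNA helicases. The list was drawn up by gene symbol with earlier results of these data known, so counts over the 10 are a description, and all 10 were found among the 58174 genes of each file. RNA-seq was performed on T24, an established human bladder cancer cell line, carrying either a scrambled control shRNA (shRNA-NC, 3 samples) or an shRNA against UBC9 (shRNA-UBC9, 3 samples). UBC9 is the enzyme that conjugates SUMO, a small ubiquitin-like protein, to its targets. Both hairpins were delivered by lentivirus and the infected cells were selected with puromycin, so the control cells carry a hairpin as well, and 1 hairpin against UBC9 stands for the knockdown. Whether the 3 samples of a group came from separate cultures is not stated, so p-values measure the spread between these samples.

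Interferon binds its receptor and activates STAT proteins, which join IRF9 in a complex, ISGF3, that binds the interferon-stimulated response element (ISRE) in the promoters of its target genes. Among those targets are proteins that attach single ADP-ribose units to other proteins (PARP10, PARP12, PARP14), that read such units through macrodomains (PARP9, PARP14), or that share the family's fold but not its activity (ZC3HAV1, also known as ZAP). DTX3L is a ubiquitin ligase that works bound to PARP9. SAMD9 and SAMD9L block protein synthesis and restrict poxviruses, and ZC3HAV1 and ZNFX1 bind viral RNA.

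Promoter sequences from RefSeq (GRCh38.p14) were at hand for 8 of the 10 genes, and not for PARP10 and ZNFX1. Each window runs from 250 bases before to 50 bases after an annotated start, and PARP9 and HELZ2 have more than 1 window. The ISRE core, searched as GAAANNGAA on both strands, was found in the promoters of 5 of the 8 genes, DTX3L, PARP9, PARP12, PARP14 and SAMD9. By window this was 5 of the 10 windows of the 8 genes, against 8.11% of all 35116 windows searched. PARP9 and DTX3L share 1 match. The GAS core, TTCNNNGAA, which binds STAT dimers, was found for PARP14 and ZC3HAV1, in 2 of the 10 windows, against 7.66% of all windows. The shorter run AAACTGA overlaps the ISRE core of DTX3L, PARP9 and SAMD9, and its letters were chosen after these promoters had been read. It was also found for SAMD9L and HELZ2, and so in 5 of the 10 windows, against 4.97% of all windows. A match describes letters and does not show binding. The stretches below run from 150 bases before to 50 bases after the start, 5′ to 3′ along each gene. They are shown as a description, and whether these letters bear on the RNA changes was not tested. Capitals mark the ISRE core in DTX3L, PARP14, PARP12 (read on the other strand) and SAMD9, the run AAACTGA in SAMD9L and HELZ2, and the GAS core in ZC3HAV1. The GAS core of PARP14 also lies in the printed stretch and is left in lower case.
DTX3L (chr3:122564188-122564387, plus strand): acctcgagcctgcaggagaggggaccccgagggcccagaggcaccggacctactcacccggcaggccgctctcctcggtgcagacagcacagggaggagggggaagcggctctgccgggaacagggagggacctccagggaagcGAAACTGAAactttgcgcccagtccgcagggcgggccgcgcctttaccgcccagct
PARP14 (chr3:122680689-122680888, plus strand): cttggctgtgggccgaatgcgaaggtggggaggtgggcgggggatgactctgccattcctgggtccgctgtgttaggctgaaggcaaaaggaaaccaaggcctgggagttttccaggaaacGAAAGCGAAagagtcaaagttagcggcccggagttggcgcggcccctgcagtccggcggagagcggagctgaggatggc
PARP12 (chr7:140062902-140063101, minus strand): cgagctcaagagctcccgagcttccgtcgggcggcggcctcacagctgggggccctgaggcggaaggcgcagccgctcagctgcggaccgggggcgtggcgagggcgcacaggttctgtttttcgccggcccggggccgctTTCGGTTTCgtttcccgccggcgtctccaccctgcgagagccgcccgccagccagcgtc
SAMD9 (chr7:93117930-93118129, minus strand): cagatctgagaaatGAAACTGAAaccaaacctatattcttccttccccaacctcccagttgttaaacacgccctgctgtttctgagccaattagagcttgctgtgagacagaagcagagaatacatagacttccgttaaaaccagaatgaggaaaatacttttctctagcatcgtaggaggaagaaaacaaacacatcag
SAMD9L (chr7:93148336-93148535, minus strand): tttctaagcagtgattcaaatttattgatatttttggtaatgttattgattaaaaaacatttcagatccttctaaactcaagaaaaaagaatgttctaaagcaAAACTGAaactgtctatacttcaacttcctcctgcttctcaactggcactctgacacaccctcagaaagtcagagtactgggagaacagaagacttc
HELZ2 (chr20:63574190-63574389, minus strand): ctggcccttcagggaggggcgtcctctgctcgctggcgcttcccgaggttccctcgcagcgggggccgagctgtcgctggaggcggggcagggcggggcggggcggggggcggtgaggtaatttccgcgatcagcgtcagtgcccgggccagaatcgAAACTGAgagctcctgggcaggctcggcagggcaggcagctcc
ZC3HAV1 (chr7:139109671-139109870, minus strand): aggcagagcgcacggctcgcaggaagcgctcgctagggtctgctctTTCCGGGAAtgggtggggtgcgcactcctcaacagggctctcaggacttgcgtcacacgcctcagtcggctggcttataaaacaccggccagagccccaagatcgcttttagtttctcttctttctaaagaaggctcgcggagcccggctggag

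The ISRE core began at position -6 in DTX3L, with the annotated start at 0, at -29 in PARP14, at -9 in PARP12 and at -136 in SAMD9. PARP9 and DTX3L are transcribed away from each other, and their canonical starts lie 38 bases apart. The match in the PARP9 window, at position -40, covers chr3:122564332-122564340, the same 9 bases as the match in DTX3L. The run AAACTGA began at position -47 in SAMD9L and at 7 in HELZ2, and the GAS core of ZC3HAV1 at -104.

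Levels are given as RPKM (a read count divided by gene length and by the mapped reads of its sample). Whole reads could be recovered from the RPKM values, and the totals ranged from 28219032 to 36058872 reads in the 6 samples, with overlapping groups. KRT7, KRT8, KRT18 and KRT19 were expressed, while CDH1 and UPK2 stayed below 0.5 RPKM on average. The 8 epithelial markers summed to between 943 and 1116 RPKM in shRNA-NC and between 430 and 568 RPKM in shRNA-UBC9, and 1 of the 6 tested, KRT7, was a down-regulated DEG. KRT8, KRT18, KRT19 and GATA3 had log2 fold changes of -0.81, -0.93, -0.99 and -0.79, each with an adjusted p below 0.05 in limma, and EPCAM had 0.996 (adjusted p = 0.0984, limma). The 10 leukocyte, endothelial and fibroblast markers summed to at most 2.32 RPKM in any sample. Of these, 3 were tested and PDGFRB was a down-regulated DEG, while COL1A1 had a log2 fold change of 0.955 (adjusted p = 0.0276, limma) and was an up-regulated DEG by limma-voom. The part of these marker changes in the results was not tested. Replicate 2 of shRNA-UBC9 stood above the other samples of its group for the genes described here. Without it, 8 of the 10 genes were up-regulated DEGs, with PARP12 at 1.03 and SAMD9L at 2.40 log2 units as the lowest and highest. In these bulk samples, a change in all cells and a change in some of them cannot be told apart.

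Knockdown of UBC9 was accompanied by higher RNA of 9 of the 10 genes. A differentially expressed gene (DEG) had a log2 fold change above 1 or below -1 and an adjusted p-value below 0.05 in limma, fitted on log2(RPKM + 0.1) across the 12428 genes with at least 0.5 RPKM in at least 3 samples. All 10 genes passed this filter. Up-regulated DEGs made up 9 of them, against 5.2% of all tested genes. By limma, by limma-voom on recovered reads and at an unadjusted p below 0.05, 0 of the 10 were lower, against 2.7% of all tested genes called down-regulated. The unadjusted threshold alone was passed by 23.8% of all tested genes as higher and by 23.2% as lower. For the same 9 genes every shRNA-UBC9 sample lay above every shRNA-NC sample, which held for 25.7% of all tested genes, while the opposite order held for 0 of the 10 and 25.4% of all tested genes. The median log2 fold change was 1.73 over the 10 genes and 0.005 over all tested genes. ZC3HAV1 was the exception. The plot of levels shows the 6 values of each gene.

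**Figure D1:**
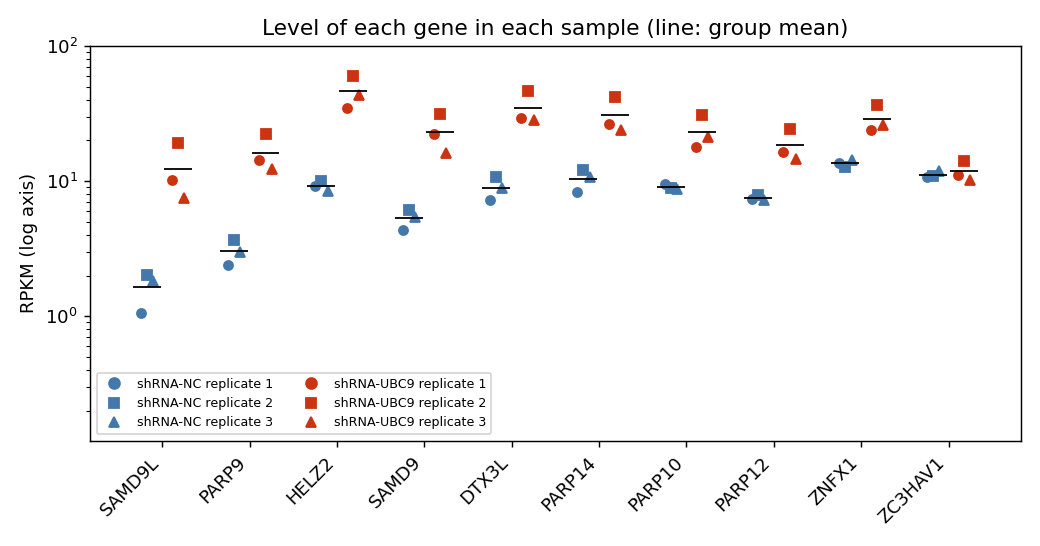
RPKM (log axis) of the 10 genes in the 6 samples, with shRNA-NC in blue, shRNA-UBC9 in red, a marker shape for each replicate number and a line at each group mean. The groups are apart for 9 genes and overlap for ZC3HAV1, whose means were 11.1 and 11.8 RPKM.

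PARP9, DTX3L and PARP14 lie close together on chromosome 3, with PARP15 between DTX3L and PARP14, and all rose. PARP9 (ENSG00000138496.17, minus strand, GENCODE release 44 on GRCh38, start 122527924 and end 122564577) carries macrodomains that read ADP-ribose. It had 2.41, 3.66 and 2.99 RPKM in shRNA-NC replicates 1 to 3, and 14.3, 22.2 and 12.2 RPKM in shRNA-UBC9. The lowest shRNA-UBC9 sample was 3.34 times the highest shRNA-NC sample. The change was 2.36 log2 units with an SE of 0.227 (limma, adjusted p = 0.000251), or 5.13-fold. These values rest on between 643 and 6988 reads in a sample.

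DTX3L (ENSG00000163840.10, plus strand, 122564338 to 122575203) encodes the ubiquitin ligase that binds PARP9, and it rose less. It had 7.25, 10.7 and 8.84 RPKM in shRNA-NC replicates 1 to 3, and 29.3, 46.5 and 28.4 RPKM in shRNA-UBC9, with no overlap of the groups. It rose by 1.93 on the log2 scale (SE 0.207, limma adjusted p = 0.000401), or 3.81-fold. In GENCODE release 44, 139 exonic bases of PARP9 and DTX3L overlap on opposite strands, which is 1.56% of the PARP9 exons and 2.41% of the DTX3L exons. Whether the counting used strand is not stated, so reads in that stretch cannot be told apart.

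PARP14 (ENSG00000173193.15, plus strand, 122680839 to 122730840) starts 105636 bases beyond the end of DTX3L and encodes a large macrodomain protein that also transfers ADP-ribose. It had 8.28, 12.0 and 10.8 RPKM in shRNA-NC replicates 1 to 3, and 26.3, 41.8 and 23.96 RPKM in shRNA-UBC9. All shRNA-UBC9 samples were above all controls. Limma gave 1.53 log2 units of increase (SE 0.217, adjusted p = 0.0014), the smallest of the 3.

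PARP10 and PARP12, which attach single ADP-ribose units, rose by similar amounts. PARP10 (ENSG00000178685.14) is on chromosome 8, from 143977153 to 144012772 on the minus strand. It had 9.47, 8.94 and 8.70 RPKM in shRNA-NC replicates 1 to 3, and 18.0, 30.6 and 21.2 RPKM in shRNA-UBC9. Its controls lay within 1.09-fold of each other, and the lowest shRNA-UBC9 sample was 1.90 times the highest of them. The log2 difference came to 1.32 (SE 0.176, limma adjusted p = 0.00102). Exons of GRINA and SPATC1 cover 8.64% of the PARP10 exons in GENCODE release 44. GRINA had 42.25 ± 3.65 RPKM in shRNA-NC and 70.9 ± 3.24 RPKM in shRNA-UBC9 (SD, n = 3 each), above PARP10 in every sample. Whether the counting used strand is not stated, so reads in the overlap cannot be told apart. Their part in the PARP10 values was not tested.

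PARP12 (ENSG00000059378.13, chromosome 7, 140023749 to 140062951, minus strand) joins CCCH zinc fingers, which bind RNA, to a catalytic domain. It had 7.44, 7.88 and 7.25 RPKM in shRNA-NC replicates 1 to 3, and 16.4, 24.2 and 14.6 RPKM in shRNA-UBC9. The groups did not overlap. The change was 1.25 log2 units with an SE of 0.171 (limma, adjusted p = 0.0012), or 2.37-fold.

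ZC3HAV1 (ENSG00000105939.14, chromosome 7, 139043515 to 139132122, minus strand) encodes ZAP, an antiviral protein with the same zinc finger type that binds CpG-rich viral RNA. It had 10.7, 10.8 and 11.9 RPKM in shRNA-NC replicates 1 to 3, and 11.2, 14.2 and 10.2 RPKM in shRNA-UBC9. Replicate 2 of shRNA-UBC9 was the highest sample and replicate 3 of the same group was the lowest. The estimated change was 0.07 log2 units (95% confidence interval -0.22 to 0.37, adjusted p = 0.68, limma). Each sample held at least 2362 reads of this gene. Leaving out shRNA-UBC9 replicate 2 turned the sign, to -0.06 log2 units. ZC3HAV1 is known to make a long and a short protein from alternative ends of its transcript, and the value per gene adds both.

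SAMD9 and SAMD9L, neighbouring paralogs on chromosome 7 that restrain protein synthesis and cell growth, both rose. SAMD9 (ENSG00000205413.8, 93099513 to 93118023, minus strand) had 4.33, 6.15 and 5.43 RPKM in shRNA-NC replicates 1 to 3, and 22.4, 31.2 and 16.1 RPKM in shRNA-UBC9. The lowest shRNA-UBC9 value was 2.62 times the highest control. It rose by 2.07 on the log2 scale (SE 0.228, limma adjusted p = 0.000451).

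SAMD9L (ENSG00000177409.12, 93130056 to 93148385, minus strand) had the lowest RPKM of the 10 genes in shRNA-NC and changed most. It had 1.07, 2.02 and 1.83 RPKM in shRNA-NC replicates 1 to 3, and 10.2, 19.2 and 7.54 RPKM in shRNA-UBC9. The groups stood 3.74-fold apart at their nearest samples. Limma gave 2.77 log2 units of increase (SE 0.34, adjusted p = 0.000704), or 6.82-fold, with a 95% confidence interval from 1.99 to 3.55. Control replicate 1 held 227 reads, the fewest for any of the 10 genes in any sample. The transcripts of SAMD9 and SAMD9L in GENCODE release 44 share 0 stretches of 50 bases with each other or with any other gene, so a read that holds 50 unaltered bases belongs to 1 of them.

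HELZ2 and ZNFX1, helicases encoded on chromosome 20, rose by different amounts. HELZ2 (ENSG00000130589.16, 63558086 to 63574239, minus strand) is known as a coactivator of PPAR nuclear receptors. It had 9.27, 10.02 and 8.46 RPKM in shRNA-NC replicates 1 to 3, and 34.6, 60.3 and 43.6 RPKM in shRNA-UBC9. The groups were far apart, and the log2 difference came to 2.27 (SE 0.184, limma adjusted p = 0.000109), or 4.83-fold. HELZ2 had the highest mean RPKM of the 10 genes in shRNA-UBC9.

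ZNFX1 (ENSG00000124201.15, 49237946 to 49278426, minus strand) encodes a helicase that binds double-stranded viral RNA at mitochondria. It had 13.7, 12.8 and 14.4 RPKM in shRNA-NC replicates 1 to 3, and 23.8, 36.5 and 25.9 RPKM in shRNA-UBC9. The groups did not overlap, but the change was the smallest of the 9, at 1.05 log2 units (SE 0.154, limma adjusted p = 0.00158). With shRNA-UBC9 replicate 2 left out its change was 0.86 log2 units (adjusted p = 0.0017, limma), below the cutoff of 1, and 8 of the 10 genes were then DEGs. Its log2 fold change was 0.82 when replicate 2 of both groups was left out.

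**Figure D2:**
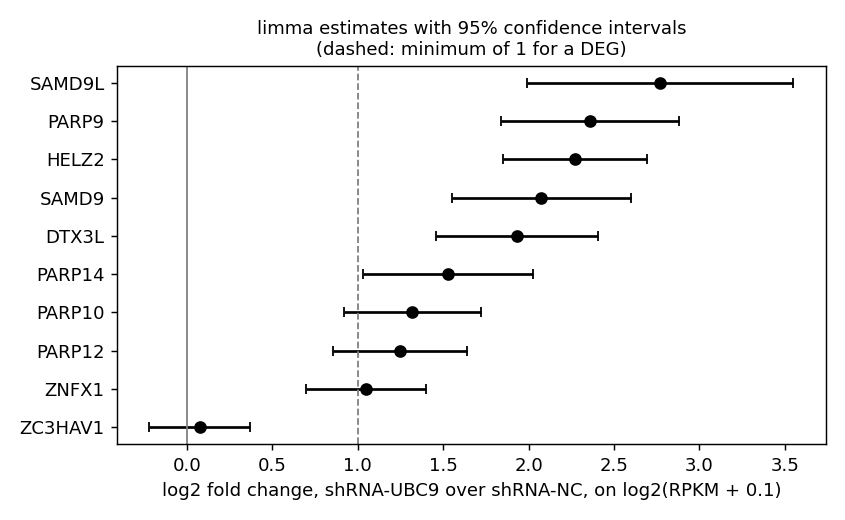
Log2 fold change of shRNA-UBC9 over shRNA-NC on log2(RPKM + 0.1), from limma, with 95% confidence intervals and a dashed line at the DEG cutoff of 1. SAMD9L is highest at 2.77, ZNFX1 sits next to the cutoff at 1.05, and the interval of ZC3HAV1 crosses 0.

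Pairs of genes were compared within each sample, where the ratio of their RPKM cancels sample scaling. With 3 samples in each group the smallest p possible is 0.1, and each of the 4 pairs had that value (exact two-sided permutation test, p = 0.1, adjusted p = 0.1 over 4 pairs). Any pair whose groups do not overlap gives this value, so the test cannot decide more. The difference in mean log2 ratio is that between the log2 fold changes of the 2 genes, and so describes the same changes again. The log2 ratio of PARP9 to DTX3L was -1.55, -1.52 and -1.53 in shRNA-NC replicates 1 to 3 and -1.04, -1.06 and -1.21 in shRNA-UBC9. PARP9 thus stood at 0.346 of the DTX3L level in the controls and at 0.466 of it after knockdown, both per length. The difference of 0.43 in mean log2 ratio exceeded the spread within either group (SD 0.018 and 0.094, n = 3 each).

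The log2 ratio of SAMD9L to SAMD9 was -1.92, -1.56 and -1.52 in shRNA-NC replicates 1 to 3 and -1.13, -0.70 and -1.09 in shRNA-UBC9. All shRNA-UBC9 ratios were higher, with a mean difference of 0.70 (SD 0.222 and 0.237, n = 3 each). With a pseudocount of 1 the difference was 0.35, and that of PARP9 to DTX3L was 0.24. The log2 ratio of ZC3HAV1 to PARP12 was 0.52, 0.46 and 0.71 in shRNA-NC replicates 1 to 3 and -0.55, -0.77 and -0.52 in shRNA-UBC9. In RPKM, ZC3HAV1 was the higher of these CCCH zinc finger genes in every control and the lower in every knockdown sample. Which gene is higher within a group depends on the gene lengths used. These were recovered as 8235 bases for ZC3HAV1 and 6285 for PARP12, against canonical transcripts of 7177 and 3021 bases. The same lengths apply to both groups.

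ZFAS1, a non-coding RNA that hosts small nucleolar RNAs, is transcribed from the opposite strand next to ZNFX1. ZFAS1 had 41.3, 43.7 and 49.1 RPKM in shRNA-NC replicates 1 to 3, and 28.2, 29.3 and 25.0 RPKM in shRNA-UBC9. It was lower in every knockdown sample, with a log2 fold change of -0.70 (adjusted p = 0.00144, limma), short of the cutoff for a DEG. The log2 ratio of ZNFX1 to ZFAS1 was -1.59, -1.76 and -1.76 in shRNA-NC replicates 1 to 3 and -0.25, 0.31 and 0.05 in shRNA-UBC9, a mean difference of 1.74. Exons of ZFAS1 and DDX27 cover 4.84% of the ZNFX1 exons in GENCODE release 44, and reads there cannot be told apart without the strand setting. The plot of ratios shows the 4 pairs.

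**Figure D3:**
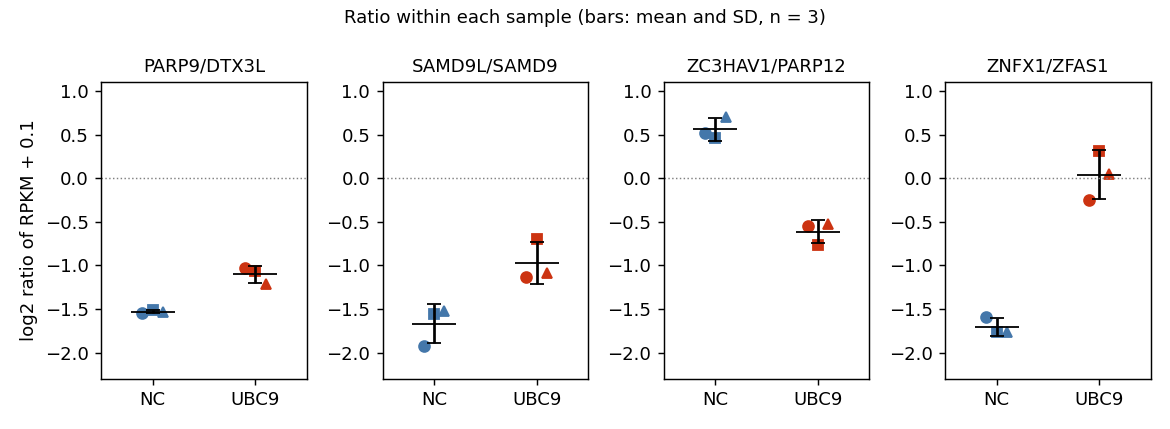
Log2 ratio of RPKM + 0.1 within each sample for 4 pairs of genes, with blue shRNA-NC and red shRNA-UBC9 markers and bars for the mean and SD (n = 3). PARP9/DTX3L, SAMD9L/SAMD9 and ZNFX1/ZFAS1 are higher in every shRNA-UBC9 sample and ZC3HAV1/PARP12 is lower.

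The order of the levels in RPKM changed between the groups. Ranks between genes within a group depend on the gene lengths used. For PARP10 and PARP12 these were recovered as 6033 and 6285 bases, against canonical transcripts of 3505 and 3021 bases. In shRNA-NC the means were 13.6 RPKM for ZNFX1, 11.1 for ZC3HAV1, 10.4 for PARP14, 9.25 for HELZ2, 9.04 for PARP10, 8.92 for DTX3L, 7.52 for PARP12, 5.30 for SAMD9, 3.02 for PARP9 and 1.64 for SAMD9L. ZNFX1 lay above ZC3HAV1 in every control sample, and SAMD9, PARP9 and SAMD9L each lay below the gene before them, while the other neighbours in this order overlapped. In shRNA-UBC9 the means were 46.1 RPKM for HELZ2, 34.8 for DTX3L, 30.7 for PARP14, 28.7 for ZNFX1, 23.3 for PARP10, 23.2 for SAMD9, 18.4 for PARP12, 16.2 for PARP9, 12.3 for SAMD9L and 11.8 for ZC3HAV1. The range of each gene over the samples overlapped that of the next. Compared within a sample, HELZ2 lay above DTX3L, and DTX3L above PARP14, in every shRNA-UBC9 sample. The same held for ZNFX1 above PARP10, SAMD9 above PARP12, PARP12 above PARP9 and PARP9 above SAMD9L. The other neighbours changed order between samples. The highest mean was 8.33 times the lowest in shRNA-NC and 3.90 times the lowest in shRNA-UBC9.

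The samples of a group differed among themselves for these genes. The coefficient of variation in shRNA-UBC9 ranged from 17.6% for ZC3HAV1 to 49.6% for SAMD9L, and in shRNA-NC from 4.32% for PARP12 to 30.7% for SAMD9L. The counting error of the recovered reads was at most 2.04% in shRNA-UBC9 and at most 5.38% in shRNA-NC for any of the 10 genes. Replicate 2 was the highest shRNA-UBC9 sample for all 10 genes, against 30.8% of all tested genes. It exceeded the mean of replicates 1 and 3 by factors from 1.33 for ZC3HAV1 to 2.17 for SAMD9L, with a median of 1.59 over the 10 genes and 1.01 over all tested genes. In shRNA-NC, replicate 2 was highest for 7 of the 10 genes (PARP9, PARP12, PARP14, DTX3L, SAMD9, SAMD9L and HELZ2), against 41.2% of all tested genes. Of 24 other interferon-stimulated genes, all 24 were highest in replicate 2 of shRNA-UBC9 and 17 in replicate 2 of shRNA-NC. What sets replicate 2 apart was not tested.

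**Figure D4:**
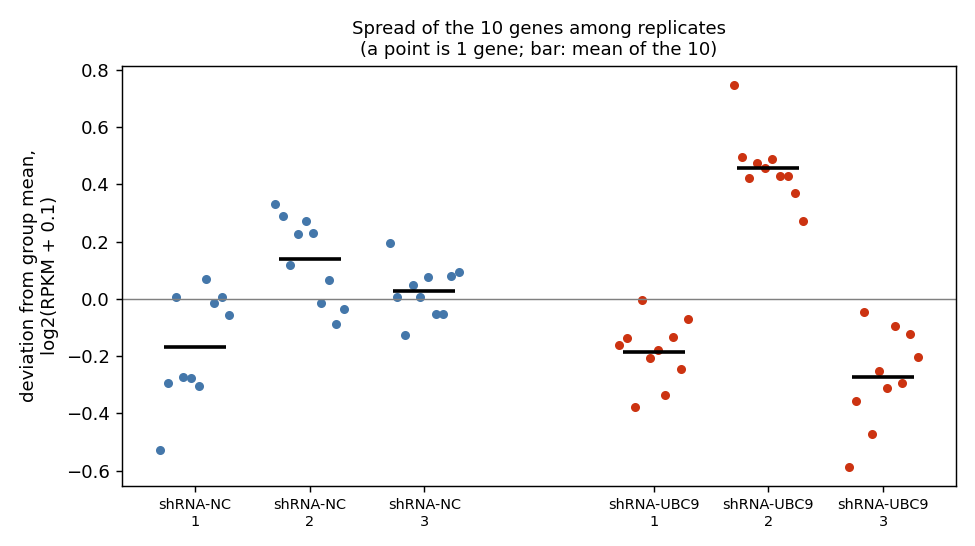
Deviation of each of the 10 genes from its own group mean on log2(RPKM + 0.1), 1 point per gene and sample, with bars for the mean of the 10. The mean deviation was 0.14 in shRNA-NC replicate 2 and 0.46 in shRNA-UBC9 replicate 2.

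The same families hold further genes. Of 12 other PARP genes, which include the DNA repair enzymes PARP1 and PARP2, 11 were tested, 1 was an up-regulated DEG and 1 a down-regulated DEG, with a median log2 fold change of 0.11. An unadjusted p below 0.05 was reached by 5, 3 of them lower (all tested genes: 23.8% higher, 23.2% lower). PARP16, PARP1 and PARP3 passed adjustment but not the fold cutoff, at -0.64, -0.35 and 0.43 log2 units (adjusted p = 0.00274, 0.0481 and 0.00718, limma). PARP8 rose from 2.30 ± 0.386 to 4.70 ± 0.795 RPKM (n = 3, SD), a fold of 2.001 that lies at the cutoff itself. TIPARP, a target and brake of the aryl hydrocarbon receptor, fell from 8.65 ± 1.05 to 4.19 ± 0.997 RPKM (SD, n = 3 each). PARP15, which lies next to PARP14, had at most 0.113 RPKM in any sample and was not tested.

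Of 6 enzymes that remove ADP-ribose, 5 were tested and 0 were DEGs by limma, by limma-voom or at an unadjusted p below 0.05, with log2 fold changes from -0.319 to 0.155. Of 7 genes of NAD synthesis, which supplies the substrate of PARP enzymes, 6 were tested and 1 was a DEG. That gene, NAMPT, the rate-limiting enzyme of NAD salvage, rose from 10.9 ± 2.03 to 126.5 ± 41.3 RPKM (n = 3, SD), or by 3.49 log2 units (adjusted p = 4.36e-05, limma). The other 5 lay between -0.331 log2 units for NMNAT1 and 0.685 for NMRK1. These 2 passed adjustment but not the fold cutoff (adjusted p = 0.0183 and 0.0352, limma). Of the 4 Deltex relatives of DTX3L only DTX2 passed the filter, at 2.39 ± 0.256 and 4.21 ± 0.283 RPKM (SD, n = 3 each), short of the cutoff with a log2 fold change of 0.79. Of 8 helicases related to UPF1, the family of HELZ2 and ZNFX1, 7 were tested and 0 were DEGs by limma or limma-voom, with log2 fold changes from -0.31 to 0.30. An unadjusted p below 0.05 was reached by 4, 2 of them lower (all tested genes: 23.8% higher, 23.2% lower).

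The 3 cofactors of ZAP were tested and 0 were DEGs by limma or limma-voom, while 2 had an unadjusted p below 0.05. These 2, N4BP1 and TRIM25, also passed adjustment and missed only the fold cutoff. Their log2 fold changes were 0.92 and 0.44 (adjusted p = 0.00056 and 0.027, limma). N4BP1 had the largest difference among them, from 5.13 ± 0.0644 to 9.88 ± 1.29 RPKM (SD, n = 3 each), and TRIM25 had 26.1 ± 1.54 and 35.8 ± 6.01 RPKM (SD, n = 3 each). IRF9, the DNA-binding subunit of ISGF3, rose from 6.96 ± 0.815 to 20.1 ± 2.42 RPKM (SD, n = 3 each). STAT2 had 7.72 ± 0.579 and 14.6 ± 5.37 RPKM (SD, n = 3 each) and was not a DEG. STAT2 passed adjustment and missed only the fold cutoff, with 0.85 log2 units of increase (adjusted p = 0.0182, limma). Of the 24 other interferon-stimulated genes, 22 were up-regulated DEGs, with a median log2 fold change of 2.45 and the 4 highest at 4.96 for IFI44L, 4.77 for RSAD2, 4.53 for MX1 and 4.18 for CMPK2. IFIT2, at 14.9 ± 3.40 and 17.6 ± 11.7 RPKM, and HERC5, at 11.5 ± 1.90 and 16.5 ± 6.33 RPKM (SD, n = 3 each), were not DEGs.

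The genes next to the 10 on the chromosome were looked up in GENCODE release 44, as the nearest protein-coding genes on each side (2 per side) outside the 10. Of 28 such neighbours found in the files, 19 were tested, with a median log2 fold change of -0.11. By limma or limma-voom, 1 was an up-regulated DEG and 0 were down-regulated DEGs. An unadjusted p below 0.05 was reached by 9, 5 of them lower (all tested genes: 23.8% higher, 23.2% lower). Some passed adjustment but not the fold cutoff, such as GRINA at 0.75 log2 units (adjusted p = 0.00067, limma) and FAM133B at -0.50 (adjusted p = 0.00723, limma). The DEG was KDM7A, a histone demethylase gene next to PARP12, with 0.749 ± 0.124 and 1.75 ± 0.469 RPKM (SD, n = 3 each).

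**Figure D5:**
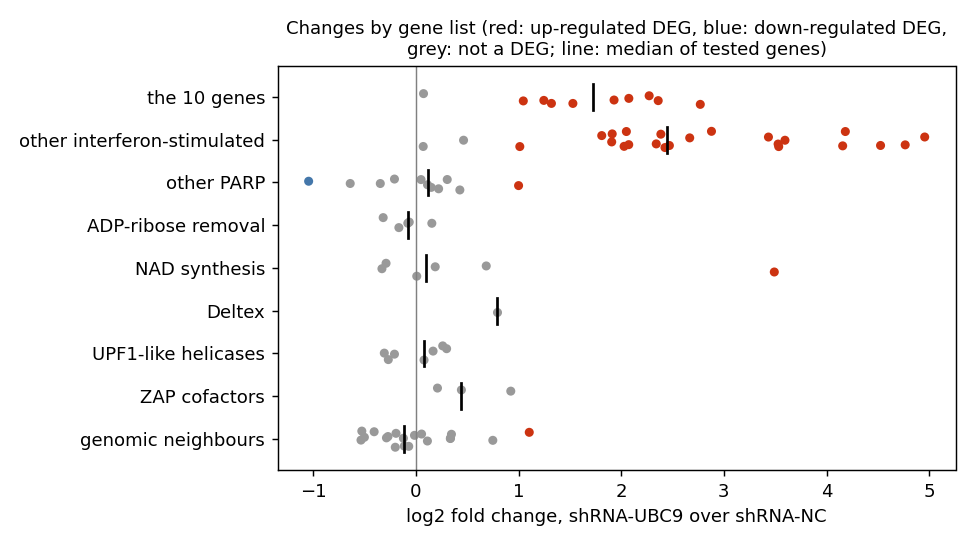
Log2 fold change of every tested gene of the lists shown (x axis), with up-regulated DEGs in red, down-regulated DEGs in blue, other genes in grey and a line at each median. The 10 genes have a median of 1.73, other interferon-stimulated genes 2.45, other PARP genes 0.11 and genomic neighbours -0.11.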

How the data were processed

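RNA-seq libraries of T24 cells (3 shRNA-NC and 3 shRNA-UBC9 samples) were prepared with an Illumina TruSeq RNA kit. The authors removed adaptors, aligned reads in the CLC Biomedical Genomics Workbench (default parameters, GRCh38) and deposited RPKM values. The annotation release, the strand setting and the treatment of reads with several matches are not given in the sources used here. Groups were taken from the sample titles. The 10 genes and all lists were chosen with earlier results of these data known. Genes with at least 0.5 RPKM in at least 3 samples (12428) were tested with limma 3.58.1 in R 4.3.3 on log2(RPKM + 0.1), with an intensity trend and Benjamini-Hochberg adjustment. RPKM is a whole number of reads divided by gene length and total, so the totals were read from low genes of known exon length, and reads were whole, within 0.01 or, for high counts, the rounding of the files, for 100% of tested genes. Common factors of a gene's reads cannot be seen. Counting errors cover sampling only. Named genes were the 10 genes, ZFAS1, list genes that passed the DEG cutoff (at most 4 per list by value) and the 5 genes most like the 10. Other list genes named in the text (such as N4BP1, TRIM25, STAT2, DTX2, IFIT2 and HERC5) were added after their values were seen. The scripts were tested on simulated data. Alternatives were other pseudocounts, filters, scalings, thresholds and variance models, a replicate block and leaving out samples. Other steps ran in Python 3.11.15 (scipy 1.17.1, pandas 2.3.3, numpy 2.4.6, matplotlib 3.10.9). Gene coordinates are from GENCODE release 44, whose gene models differ for many genes from those behind the RPKM values. The recovered length equalled the release 44 exon length for 2031 of 11328 genes named in both, and for ZFAS1 it was 2243 against 8315 bases. Overlap percentages thus describe release 44 and need not hold for the authors' counting. Some genes are not reported here.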

Additional observations from a re-analysis of the deposited data

How the results depend on the processing

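The 9 up-regulated genes kept their direction under all 16 alternative fits, and 142 of 144 fits of single genes kept the call. The exceptions were ZNFX1 without shRNA-UBC9 replicate 2 (log2 fold change 0.86) and without replicate 2 of both groups (0.82). In other fits ZNFX1 kept the call only at the cutoff itself. It had 1.0 with a pseudocount of 1, 1.002 without shRNA-NC replicate 2 and 1.004 with median scaling. ZC3HAV1 was called in none of them, and its log2 fold change was -0.062 and -0.08 in the same fits, and -0.062 to 0.175 with each sample left out. The number of up-regulated genes among the 10 was 8 in those fits and 9 in the others. The DEG count of 981 (646 up, 335 down) moved to 552 (391 up, 161 down) with a pseudocount of 1, to 552 (342 up, 210 down) with at least 1 RPKM required in all samples, and to 4576 (2339 up, 2237 down) with no minimum fold change. With each sample left out it ranged from 799 to 964. With a pseudocount of 1 the difference in log2 ratio was 0.24 for PARP9/DTX3L and 0.349 for SAMD9L/SAMD9, since adding 1 RPKM shrinks low values. Each replicate left out gave 0.396 to 0.483, 0.559 to 0.775, -1.224 to -1.094 and 1.606 to 1.885 for PARP9/DTX3L, SAMD9L/SAMD9, ZC3HAV1/PARP12 and ZNFX1/ZFAS1. The fit of limma-voom on recovered reads and the fit without replicate 2 of both groups were chosen after seeing the data. With voom SAMD9L had a log2 fold change of 2.83. With the replicate number as a block, 974 DEGs were found and 9 of the 10 genes were up-regulated. The correlation of same-numbered samples' deviations from their group means was -0.367, 0.0728 and -0.171 for numbers 1, 2 and 3. Between different numbers the highest was 0.526, for shRNA-NC 1 and shRNA-UBC9 3. These values cover all tested genes and do not decide whether same-numbered samples were handled together. For 7 of the 10 genes replicate 2 was highest in both groups, against 1839 of the 12428 tested genes. The same held for 17 of the 24 other interferon-stimulated genes. Replicate 2 held the highest shRNA-UBC9 value of ZNFX1 (36.5 RPKM, against 23.8 and 25.9), so leaving it out lowered the estimate. What sets that sample apart was not tested. Reads per gene were at least 227 in each sample, so depth limits SAMD9L in shRNA-NC most.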

Other observations

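Outside the 10 genes and the list of other interferon-stimulated genes, 5 genes had the profile over the 6 samples most like the mean of the 10, measured by Pearson's r of log2(RPKM + 0.1). This is a description, since the 6 samples form 2 groups that set most of each r. They were SP110, a nuclear body protein gene (r = 0.9997), PHF11 (r = 0.9996), IFIT5, an RNA-binding antiviral gene (r = 0.9989), ZCCHC2 (r = 0.9988) and MAD2L1BP (r = 0.9987). SP110 had 1.58, 2.23 and 1.89 RPKM in shRNA-NC replicates 1 to 3 and 7.79, 15.2 and 7.52 RPKM in shRNA-UBC9, so replicate 2 was highest in both groups. IFIT5 had 5.31, 7.40 and 6.09 RPKM in shRNA-NC and 21.0, 38.4 and 20.5 RPKM in shRNA-UBC9. MAD2L1BP moved far less, from 10.5 ± 0.223 to 13.0 ± 0.717 RPKM (SD, n = 3 each), although its order over the samples was alike. Among the 10 genes, r with the mean of the other 9 was lowest for ZC3HAV1, at 0.467, and at least 0.976 for the rest. With the group means removed, r was 0.892 for ZC3HAV1 and lowest for PARP10, at 0.758.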
